A study of Mus musculus with 6 samples.

Results

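Sox10, S100b, Th, Dbh, Tubb3 and Prph, 6 genes that mark the Schwann cells and autonomic neurons of peripheral nerve, were followed through bulk RNA-seq of newborn mouse kidney and ureter. They were taken by symbol from the deposited gene table, which lists 24532 genes. Kidney was sequenced from Ahnak KO and WT mice in 2 libraries each, and ureter in 1 library each, all at PN1 (postnatal day 1). Ahnak, a very large scaffold protein, was disrupted at exon 5 in the whole animal and not in a chosen cell type. The methods put 2 to 4 kidneys or ureters into RNA extraction without the number per library, and they do not say whether the kidney replicates came from separate litters. Both ureter libraries carry a kidney title and a ureter tissue label.

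Peripheral nerve reaches the ureter as bundles of axons wrapped by Schwann cells. Schwann cells arise from the neural crest and depend on the transcription factor Sox10 at every stage, and they hold the calcium-binding protein S100b. Sympathetic axons make noradrenaline from tyrosine through tyrosine hydroxylase (Th), the rate-limiting step, and dopamine beta-hydroxylase (Dbh), the last step. Tubb3 is the beta tubulin typical of neurons and Prph (peripherin) is an intermediate filament of peripheral neurons. The cell bodies of the extrinsic axons lie in ganglia outside the kidney and ureter, and their mRNA is mostly kept there. In bulk tissue, fewer cells of a type and less RNA per cell cannot be told apart.

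In the GENCODE M21 annotation of GRCm38, Sox10 (gene number 20665) lies on chromosome 15 from 79154908 to 79165240 on the minus strand, and its principal transcript has 4 exons. S100b (gene number 20203) lies on chromosome 10 from 76253853 to 76261159 with 3 exons and overlaps Dip2a on the opposite strand. Th (gene number 21823) lies on chromosome 7 from 142892752 to 142931128 on the minus strand with 13 exons, and Dbh (gene number 13166) on chromosome 2 from 27165233 to 27183200 with 12 exons. Tubb3 (gene number 22152) lies on chromosome 8 from 123411424 to 123422015 with 4 exons and overlaps the gene model Gm20388 on its own strand, so reads of that stretch could have been split between them. Prph (gene number 19132) lies on chromosome 15 from 99055174 to 99058978 with 8 exons.

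RefSeq promoters of GRCm38.p6 were at hand for 5 of the 6 genes, and the 100 bases before each start are shown because both ureter libraries stood above all 4 kidney libraries for each of these genes. The start is that of RefSeq, and the windows of Th, Dbh and Tubb3 lie inside the GENCODE spans given above. Capitals mark matches, on either strand, to TATAAA (the TATA box), TGACGTCA (the cAMP response element), ACAAAG or ACAATG (core letters bound by SOX proteins), and no matches overlapped. The windows are chr7:142899996-142900095 on the minus strand for Th, chr2:27165407-27165506 for Dbh, chr8:123411453-123411552 for Tubb3, chr15:99055074-99055173 for Prph and chr10:76253736-76253835 for S100b, the last 4 on the plus strand.
Th: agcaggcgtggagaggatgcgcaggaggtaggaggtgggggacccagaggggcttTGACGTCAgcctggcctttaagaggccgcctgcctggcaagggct
Dbh: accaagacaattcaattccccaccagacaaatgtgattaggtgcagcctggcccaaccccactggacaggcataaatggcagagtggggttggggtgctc
Tubb3: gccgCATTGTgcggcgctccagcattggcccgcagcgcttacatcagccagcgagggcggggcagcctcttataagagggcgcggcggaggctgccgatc
Prph: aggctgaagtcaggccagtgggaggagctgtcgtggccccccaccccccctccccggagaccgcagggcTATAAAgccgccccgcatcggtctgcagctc
S100b: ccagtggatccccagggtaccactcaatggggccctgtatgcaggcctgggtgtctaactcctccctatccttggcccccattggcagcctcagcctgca

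Th held the cAMP response element 38 to 45 bases before its start, a motif found in 1.15% of the 32851 RefSeq windows of this length. Prph held a TATA box 26 to 31 bases before its start, found in 5.56% of windows. Tubb3 held ACAATG, read on the other strand as CATTGT, 91 to 96 bases before its start, found in 4.27% of windows. ACAAAG, found in 6.56% of windows, was in none of the 5, and the windows of Dbh and S100b held none of the 4 motifs. A match of letters shows no binding.

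The glial genes Sox10 and S100b separated ureter from kidney most widely. Sox10 had 35 and 22 counts in the Ahnak KO kidneys, 25 and 32 in the WT kidneys, 219 in the Ahnak KO ureter and 411 in the WT ureter. Both ureter libraries stood far above all 4 kidney libraries, which lay close together. Per length, Sox10 was at 0.359 ± 0.0918 TPM (SD, n = 4) in kidney and at 4.64 ± 0.695 TPM (SD, n = 2) in ureter. S100b had 14 and 4 counts in the Ahnak KO kidneys, 8 and 9 in the WT kidneys, 356 in the Ahnak KO ureter and 566 in the WT ureter. Its level was 0.175 ± 0.0907 TPM (SD, n = 4) in kidney and 11.3 ± 0.391 TPM (SD, n = 2) in ureter. With genotype as a covariate, edgeR's quasi-likelihood test over all 6 libraries put Sox10 16.8-fold higher in ureter (log2 fold change 4.07, standard error 0.357, adjusted p = 2.91e-04). It put S100b 81.1-fold higher (log2 fold change 6.34, standard error 0.449, adjusted p = 1.20e-04). S100b exceeded Sox10 in both ureters, at 2.65 and 2.25 times its TPM, and stayed under it in every kidney, at 0.296 to 0.654 times.

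**Figure D1:**
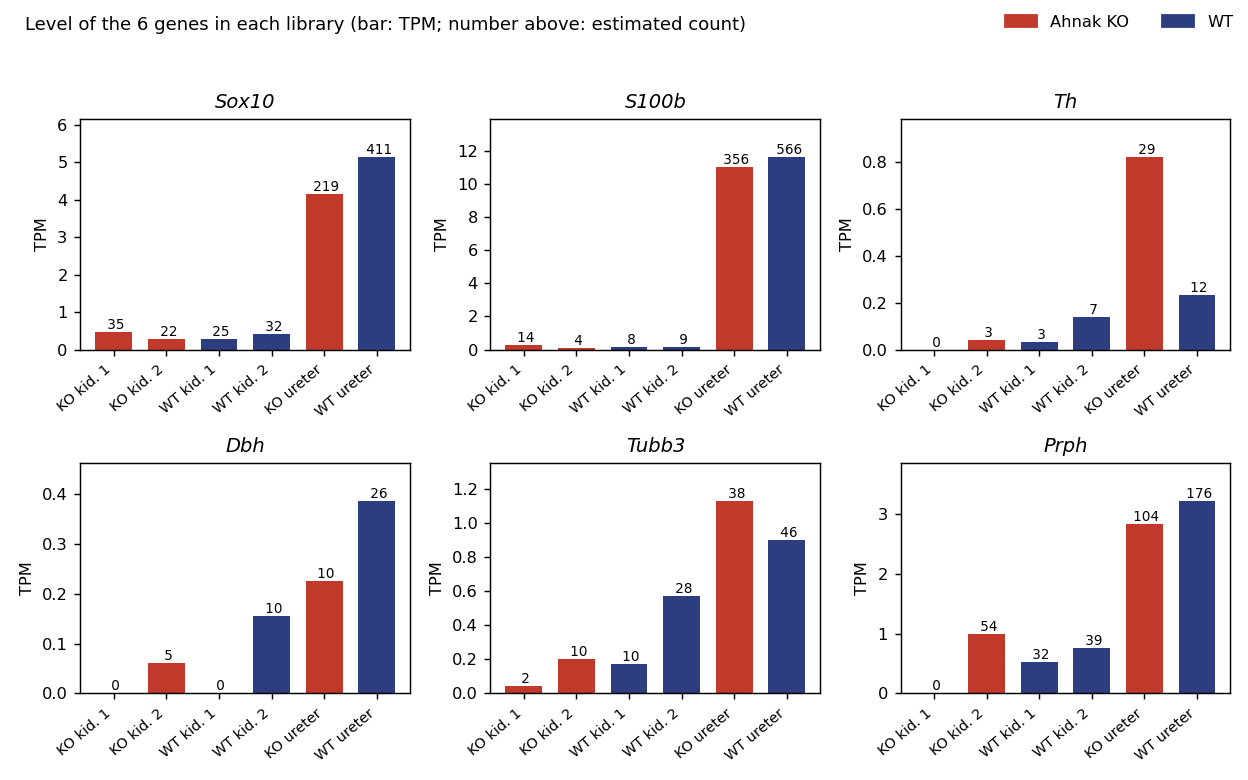
Level of each of the 6 genes in each of the 6 libraries, with bars in TPM on axes that start at 0 and the estimated count printed above each bar (red, Ahnak KO; blue, WT; kid., kidney). In every panel both ureter libraries stand above all 4 kidney libraries, and Th, Dbh and Prph are at 0 counts in Ahnak KO kidney 1.

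The neuronal structural genes were lower than the glial genes in ureter and less even in kidney. Prph had 0 and 54 counts in the Ahnak KO kidneys, 32 and 39 in the WT kidneys, 104 in the Ahnak KO ureter and 176 in the WT ureter. The ureters stood at 3.03 ± 0.267 TPM (SD, n = 2) and the kidneys, spread by the 0 in Ahnak KO kidney 1, at 0.568 ± 0.425 TPM (SD, n = 4). Tubb3 had 2 and 10 counts in the Ahnak KO kidneys, 10 and 28 in the WT kidneys, 38 in the Ahnak KO ureter and 46 in the WT ureter. It stood at 1.02 ± 0.162 TPM (SD, n = 2) in ureter and 0.248 ± 0.228 TPM (SD, n = 4) in kidney, where WT kidney 2 alone came near the ureters. Neither difference passed the adjusted threshold of 0.05. In edgeR, ureter over kidney came to 2.79 on the log2 scale for Prph (standard error 1.15, adjusted p = 0.0935) and to 2.68 for Tubb3 (standard error 1.02, adjusted p = 0.0742). Without Ahnak KO kidney 1, Prph passed in edgeR with an adjusted p of 0.0127 and a log2 fold change of 2.35.

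The enzymes of noradrenaline synthesis were near the limit of counting. Th had 0 and 3 counts in the Ahnak KO kidneys, 3 and 7 in the WT kidneys, 29 in the Ahnak KO ureter and 12 in the WT ureter. Dbh had 0 and 5 counts in the Ahnak KO kidneys, 0 and 10 in the WT kidneys, 10 in the Ahnak KO ureter and 26 in the WT ureter. The ureters were again the highest libraries for both enzymes, but in opposite order. In ureter Th was at 0.526 ± 0.416 TPM and Dbh at 0.306 ± 0.114 TPM (SD, n = 2 for each), and in kidney they were at 0.0537 ± 0.0606 and 0.0539 ± 0.0730 TPM (SD, n = 4 for each). The log2 fold change for ureter over kidney was 3.54 for Th (standard error 1.46, adjusted p = 0.0927 in edgeR) and 2.77 for Dbh (standard error 1.54, adjusted p = 0.191). Taken within genotype, Th differed between tissues by 5.14 on the log2 scale in the Ahnak KO libraries and by 1.56 in the WT libraries. Th passed the adjusted threshold under 4 of 17 alternative settings, the Wald test of DESeq2 among them (adjusted p = 0.0447), Tubb3 under 4, Prph under 5 and Dbh under 0.

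Ordered by TPM in ureter, the genes ran S100b, Sox10, Prph, Tubb3, Th and Dbh. The ranges of neighbouring genes did not overlap down to Th, while Th and Dbh overlapped. In kidney the order was Prph, Sox10, Tubb3, S100b, Dbh and Th, and every neighbouring pair overlapped between libraries. Summed over the 6 genes, the kidneys held 0.798 to 2.22 TPM and the ureters 20.2 and 21.4 TPM.

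All 6 genes passed the filter on low counts in the comparison of tissues, but S100b, Th and Dbh did not pass it among kidney libraries alone, so they entered through the tissue where they are high. Of the 6, 2 were called higher and 0 lower in ureter by edgeR, where 21.4% of 16873 genes tested were called higher and 23.7% lower. Both ureter libraries lay above all 4 kidneys for 6 of 6, against 28.1% of the genes tested. Since the 6 genes were chosen with earlier results of these data known, that comparison is a description and not a test. Scaled by library size alone instead of TMM factors, the median of all genes tested moved from -0.076 to -0.36 on the log2 scale and the share of called genes that were higher in ureter from 47.4% to 28.0%. The log2 fold changes were then 3.78 for Sox10, 6.05 for S100b and 2.38 to 3.23 for the other members. With each library left out in turn, both glial genes stayed past the threshold each time.

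Other genes of the Schwann lineage were read from a list of 25, of which 24 were tested. In ureter 13 of the 24 were higher and 2 lower at an adjusted p under 0.05 in edgeR, with a median log2 fold change of 0.97 against -0.076 over all genes tested, of which 21.4% were called higher and 23.7% lower. Without the Ahnak KO ureter 1 was called lower. Cdh19, a cadherin of Schwann cell precursors, had 10 counts in WT kidney 2 and 0 in the other kidneys, against 68 in the Ahnak KO ureter and 209 in the WT ureter (log2 fold change 6.79, standard error 1.35, adjusted p = 0.00813), and without the Ahnak KO ureter it missed the threshold (5.64, adjusted p = 0.0521). Cdh19 did not pass the filter on low counts among kidney libraries alone, so it entered through the ureters, where it is high. Gfra3, the artemin receptor found on Schwann cell precursors and sympathetic neurons, had 6 to 24 counts in kidney and 280 and 251 in the Ahnak KO and WT ureters (log2 fold change 4.88). Fabp7, a fatty acid binding protein of immature glia, had 52 to 100 counts in kidney and 546 and 701 in ureter (log2 fold change 3.73). Foxd3, a neural crest transcription factor, had 2 to 32 counts in kidney and 99 and 134 in ureter (log2 fold change 3.50). The call of Foxd3 was lost without either ureter or without WT kidney 1, with edgeR's adjusted p between 0.0595 and 0.149. Of the genes of myelin, Mbp, Pmp22, Mal and Cnp were called higher in ureter, at log2 fold changes of 1.80, 1.19, 2.21 and 0.81. Prx (-0.53, standard error 0.257) and Mag (0.43, standard error 0.763) were not called. In ureter Mal stood at 476 TPM and Pmp22 at 184 TPM, far above Sox10 at 4.64 TPM. The part of other cells in these rises was not tested. Ncam1 and Tfap2a, both also genes of kidney epithelium or its precursors, were lower in ureter at -1.53 and -1.15.

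**Figure D2:**
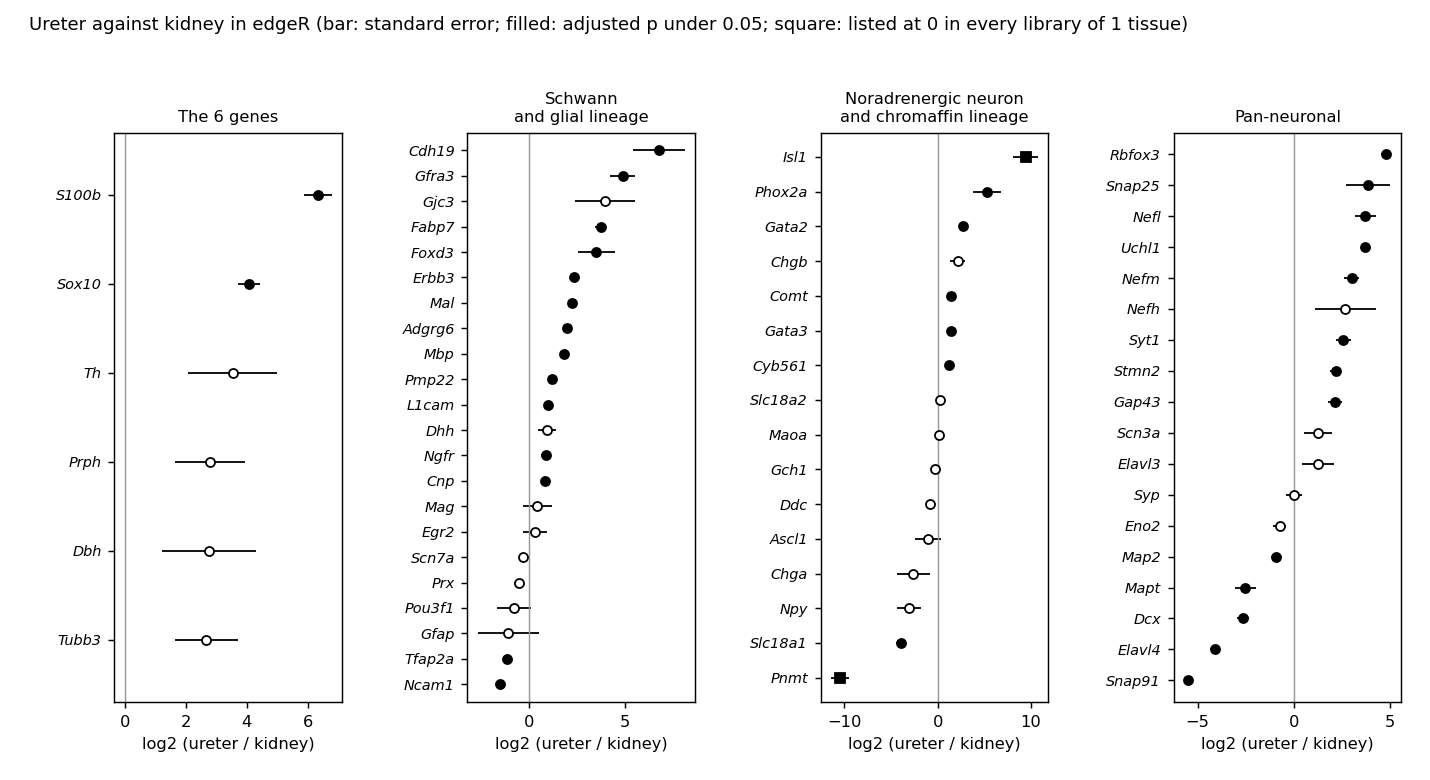
Log2 fold change of ureter over kidney from edgeR (bar, standard error; filled marker, adjusted p under 0.05) for the 6 genes and for the tested genes, where reported here, of the Schwann and glial, noradrenergic and chromaffin, and pan-neuronal lists. Squares mark genes listed at 0 in every library of 1 tissue, whose fitted position depends on the prior count. S100b and Sox10 are the filled members, and the noradrenergic panel runs from Isl1, higher in ureter, to Pnmt, higher in kidney.

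Genes of the noradrenergic lineage went both ways. Of 21 listed, 17 were tested, 7 were called higher and 2 lower in ureter, with a median log2 fold change of 0.25. Over all genes tested 21.4% were called higher and 23.7% lower. The genes called lower rose to 4 without the WT ureter and by DESeq2. The filter on low counts passed 14 of the list among kidney libraries alone. Transcription factors that specify sympathetic neurons were among the higher genes. Isl1 and Phox2a, 2 of them, did not pass that filter among kidneys, so they entered through the ureters, where they are high. Isl1 was listed at 0 in all 4 kidneys and had 56 and 67 counts in the Ahnak KO and WT ureters, at least 33.3-fold higher against a limit of 3 counts in each kidney library. Phox2a had 0 to 8 counts in kidney and 38 and 40 in ureter (log2 fold change 5.25, adjusted p = 0.0300 in edgeR). It lost its call without any 1 of the 4 kidneys or without the Ahnak KO ureter, with adjusted p-values of 0.0556 to 0.196. Gata2 and Gata3, which epithelium of the urinary tract also makes, were higher as well, at log2 fold changes of 2.75 and 1.42. Pnmt, which turns noradrenaline into adrenaline in chromaffin cells, went the other way, with 172 to 287 counts in kidney and 0 in both ureters, at least 42.3-fold lower in ureter. Slc18a1, the vesicular monoamine transporter of chromaffin cells, had 639 to 860 counts in kidney and 11 and 60 in ureter (log2 fold change -3.92, adjusted p = 0.00135). Slc6a2, the noradrenaline transporter of sympathetic axons, had 14 counts in the WT ureter and 0 in the other 5 libraries, and Slc18a2, the neuronal monoamine transporter, did not differ beyond its error (log2 fold change 0.25, standard error 0.402).

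Among 20 pan-neuronal genes, 18 were tested, 8 were called higher and 5 lower in ureter, with a median log2 fold change of 1.69, where 21.4% of all genes tested were called higher and 23.7% lower. Among the Ahnak KO libraries alone 5 were called higher and 6 lower. Rbfox3 (NeuN, a splicing factor of mature neurons) had 34 to 45 counts in kidney and 418 and 1064 in the Ahnak KO and WT ureters, a log2 fold change of 4.77. Snap25, of the synaptic vesicle fusion machinery, did not pass the filter among kidney libraries alone and entered through the ureters. It had 0 to 9 counts in kidney and 34 and 66 in ureter (log2 fold change 3.83). Its call was lost among the Ahnak KO libraries alone (adjusted p = 0.175 in edgeR) and without either ureter or either WT kidney (adjusted p = 0.0916 to 0.147). The opposite held for Snap91, a clathrin assembly protein of synapses, at 4784 to 5794 counts in kidney against 70 and 72 (log2 fold change -5.49), and for Elavl4, a neuronal RNA-binding protein, at 622 to 977 against 20 and 43 (log2 fold change -4.10). These kidney-high genes stood far above Tubb3 and Prph there, which had at most 28 and 54 counts. In ureter Rbfox3, at 8.49 TPM, likewise stood above Tubb3 at 1.02 TPM and Prph at 3.03 TPM. Of 10 cholinergic and nitrergic genes, 7 were tested, and edgeR called 0 higher and 4 lower in ureter, with 1 higher at an unadjusted p under 0.05 and 0 higher by DESeq2. Chrnb4, a ganglionic nicotinic receptor subunit, had 79 to 116 counts in kidney and 0 in both ureters, at least 19.3-fold lower in ureter. Vip, a vasodilator peptide, Nos1, the neuronal nitric oxide synthase, and Ache, the esterase that ends cholinergic signalling, were also lower in ureter, at log2 fold changes of -4.35, -4.14 and -3.80. Nos1 lost its call without Ahnak KO kidney 2, WT kidney 1 or WT kidney 2, with edgeR's adjusted p between 0.0625 and 0.0776. Of the 7 tested, 6 were fitted lower in ureter and 1, Slc5a7, higher (log2 fold change 2.01, standard error 0.832). Slc5a7 had 6 to 18 counts in kidney and 22 and 28 in the Ahnak KO and WT ureters. It too did not pass the filter among kidney libraries alone. Chat, the enzyme that makes acetylcholine, had 22 counts in the Ahnak KO ureter and 0 in the other 5 libraries. Slc18a3 had 0 counts in every kidney and 8 and 3 in the Ahnak KO and WT ureters.

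Of 12 genes of sensory neurons, 3 (Trpv1, Scn10a and Mrgprd, all of nociceptors) were listed at 0 in every library and 6 were tested. Scn9a, a sodium channel of peripheral neurons, had 230 to 377 counts in kidney and 0 in both ureters, at least 61.7-fold lower in ureter. In the fit of all 6 libraries it was the 1 sensory gene called in edgeR, while 0 were called higher and 0 were higher at an unadjusted p under 0.05. DESeq2 called 0 higher and 2 lower. Among all genes tested edgeR called 21.4% higher and 23.7% lower in ureter. Calca, for the peptide CGRP, had 15 to 82 counts in kidney and 66 and 23 in ureter, and its log2 fold change of 0.45 (standard error 0.711) missed the threshold. P2rx3 and Avil missed it as well, at -0.70 (standard error 1.88) and -1.12 (standard error 1.15).

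Neurotrophic ligands and their receptors were split between the tissues. Of 12 neurotrophic ligands tested, 4 were called higher and 4 lower in ureter, where 21.4% and 23.7% of all genes tested were. The higher calls rested on the WT ureter, since edgeR called 1 higher without it and 0 higher and 5 lower among the Ahnak KO libraries alone. Without the Ahnak KO ureter 2 were called lower. Artn (artemin, the ligand of Gfra3) had 94 to 156 counts in kidney and 158 and 608 in the Ahnak KO and WT ureters (log2 fold change 2.22), and without the WT ureter it missed the threshold (adjusted p = 0.0608 in edgeR). Gdnf, which the kidney mesenchyme makes to drive ureteric bud branching, had 3397 to 5539 counts in kidney and 9 and 40 in ureter (log2 fold change -6.87), and Ntf3 was lower in ureter at -1.81. Without the Ahnak KO ureter or without WT kidney 2 Ntf3 missed the threshold (adjusted p = 0.0909 and 0.0724). Of 11 receptors tested, 5 were called higher and 2 lower, and with library size alone 3 were higher. Ret and Gfra1, the receptor pair for Gdnf, were lower in ureter at -4.37 and -3.45, while Ntrk2, the receptor for Bdnf, and Gfra2, the receptor for neurturin, were higher at 2.60 and 1.61.

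**Figure D3:**
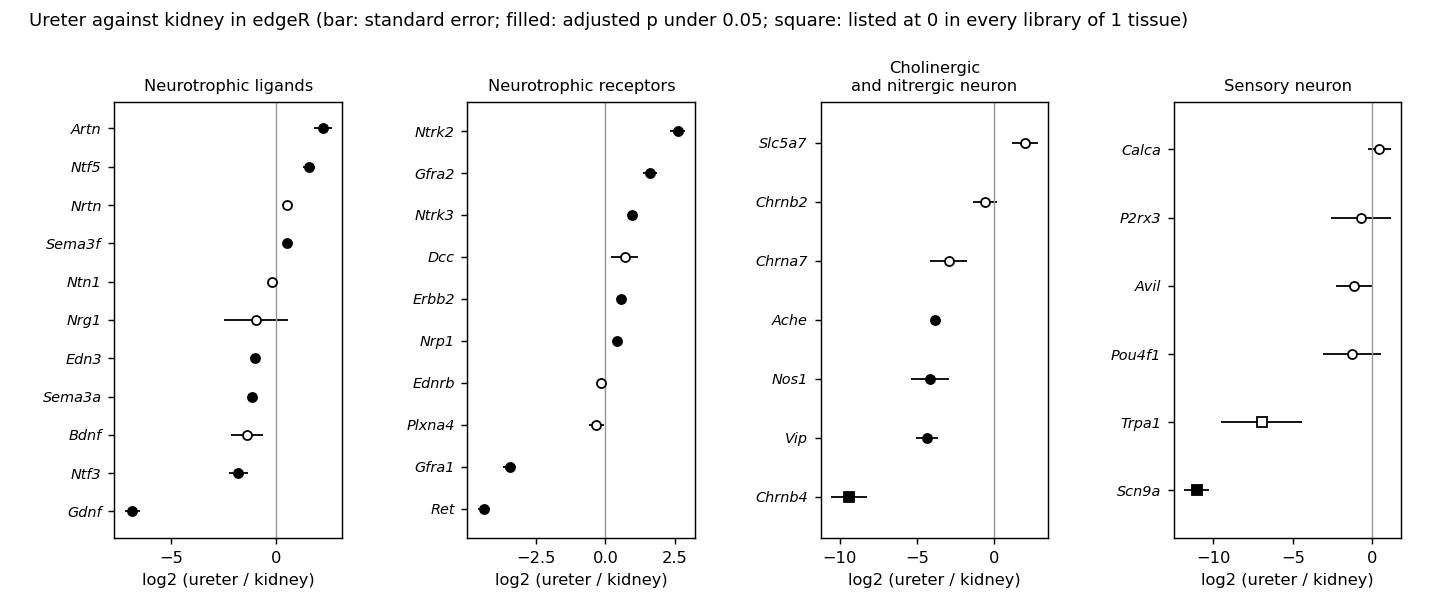
Log2 fold change of ureter over kidney from edgeR (bar, standard error; filled marker, adjusted p under 0.05) for the tested genes, where reported here, of 4 further lists. Squares mark genes listed at 0 in both ureters, whose fitted position depends on the prior count. Artn, Ntrk2, Gfra2 and Slc5a7 lie to the right (higher in ureter). Gdnf, Ret, Gfra1 and the cholinergic and nitrergic genes other than Slc5a7 lie to the left.

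The relatives of Tubb3, Prph and S100b differed widely in level. Of 7 other beta tubulins edgeR called 1 higher and 3 lower in ureter, and 2 higher without WT kidney 1. The shares over all genes tested were 21.4% higher and 23.7% lower. Tubb6 was higher at a log2 fold change of 1.29, and Tubb4a, Tubb2b and Tubb5 were lower at -1.13, -0.86 and -0.29, so Tubb3 at 2.68 had the widest fitted difference of the beta tubulins without passing the test. Tubb5 missed the threshold with any 1 of the 6 libraries left out (adjusted p = 0.0524 to 0.145 in edgeR). Per length, Tubb3 was the least abundant of them in ureter apart from Tubb1 (1.02 against 0.0513 TPM), and Tubb5 reached 532 TPM. Of the 3 other filament genes listed with Prph, Des and Vim, of muscle and mesenchyme, were called higher at 2.35 and 1.58, and Sync (1.01, standard error 0.590) missed the threshold. In the S100 family 9 of 10 genes were called higher in ureter and S100g, the vitamin D dependent calcium-binding protein of kidney tubule, lower. S100a6, at a log2 fold change of 5.11, and S100b had the widest rises of the family, with S100a8 and S100a9 of neutrophils at 2.36 and 2.11. Without the WT ureter S100a9 missed the threshold (1.11, adjusted p = 0.0514).

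Markers of other cells moved with tissue too. Summed over 9 kidney markers the kidneys held 1194 to 1320 TPM and the ureters 7.87 and 1.65, and over 9 ureter markers the kidneys held 335 to 429 TPM and the ureters 9915 and 11236, so the tissue labels of the ureter libraries matched their contents. The 7 striated muscle markers summed to 14.5 to 16.7 TPM in kidney and to 120 and 229 TPM in the Ahnak KO and WT ureters. The part of nerve carried with that muscle in the neural signal was not tested. S100b is also made by fat, cartilage and pigment cells. Cartilage markers (5 genes) summed to 36.1 to 42.7 TPM in kidney and to less, 18.2 and 20 TPM, in ureter. The kidney sum was carried by Col2a1 (25 against 0.555 TPM), while Col9a1 was called higher in ureter (14.9 against 8.62 TPM, adjusted p = 0.0023 in edgeR) and Acan stood at 1.98 (standard error 1.05) without passing. The 6 melanocyte markers summed to 2.4 to 8.75 TPM in kidney and 4.02 and 4.82 TPM in ureter. Tyr and Tyrp1 were at 0 in all 6 libraries and Dct and Mlana at 0 in both ureters, while Mitf had 238 to 1054 counts in kidney and 286 and 512 in ureter and Pmel 41 to 69 and 42 and 80, neither of them called (log2 fold changes -0.23 and 0.67). The part of pigment cells in S100b was not tested. Adipocyte markers (7 genes) summed to 1088 to 1351 TPM in kidney and 1318 and 750 TPM in ureter, nearly all Fabp4, while Adipoq had 0 to 4 counts in kidney and 170 and 18 in the Ahnak KO and WT ureters. Whether fat added to S100b was not tested. For Th and Dbh, the adrenal gland was read: its 10 cortex markers summed to 34.1 to 45.0 TPM in kidney and 15.5 and 8.37 TPM in ureter, with Cyp11b2 at 0 in every library and Cyp21a1 at most at 2 counts. Akr1b7 made up most of the kidney sum, at 28 to 40.1 TPM. Cyp11a1, with 18 to 34 counts in kidney and 143 and 154 in ureter, and Mrap, with 0 to 11 and 139 and 47, were called higher in ureter (log2 fold changes 3.32 and 4.81, adjusted p = 0.00245 and 0.0332 in edgeR). Mrap did not pass the filter on low counts among kidney libraries alone, so it entered through the ureters. Akr1b7, Nr5a1 and Hsd3b1 were called lower in ureter. Nr5a1 had 10 to 91 counts in kidney and Hsd3b1 had 7 to 21, and both were at 0 in both ureters. The part of adrenal tissue in Th and Dbh was not tested. The 4 medulla markers, Pnmt among them, summed to 13.8 to 18.8 TPM in kidney and 0.859 and 1.21 TPM in ureter. Pnmt and Slc18a1 carried the kidney sum, at means of 8.04 and 8 TPM. Chga was low in both tissues, with 2 to 16 counts in kidney and 2 and 0 in ureter. Chgb went the other way, with 9 to 24 counts in kidney and 35 and 46 in ureter. Chgb stood 2.14 higher in ureter on the log2 scale but missed edgeR's threshold (adjusted p = 0.0614). The 6 markers of enteric and central neurons summed to 0.169 to 1.10 TPM in kidney and to 0 and 0.0689 TPM in ureter, with Slc17a6, Olig2 and Neurod1 at 0 in all 6 libraries.

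Between genotypes in kidney the 6 genes showed no called difference. The 3 that passed the filter, Sox10, Tubb3 and Prph, gave 0 called genes in edgeR, 0 at an unadjusted p under 0.05 and 0 by DESeq2, where edgeR called 2 of 16481 genes (0.0121%). Sox10 was at 0.370 ± 0.124 TPM in Ahnak KO kidney and 0.348 ± 0.0972 TPM in WT kidney (SD, n = 2 for each), so that KO over WT came to 0.12 on the log2 scale (standard error 0.729, edgeR's adjusted p = 1). Tubb3 was at 0.122 ± 0.114 against 0.375 ± 0.282 TPM (log2 fold change -1.55, standard error 1.17), and Prph at 0.496 ± 0.701 against 0.641 ± 0.174 TPM (log2 fold change -0.25, standard error 1.53). S100b stood at 0.192 ± 0.152 against 0.158 ± 0.0175 TPM, Th at 0.0199 ± 0.0281 against 0.0876 ± 0.0752 TPM and Dbh at 0.0306 ± 0.0432 against 0.0773 ± 0.109 TPM, and these 3 were too low to test. For all 6 genes the 2 genotypes overlapped.

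**Figure D4:**
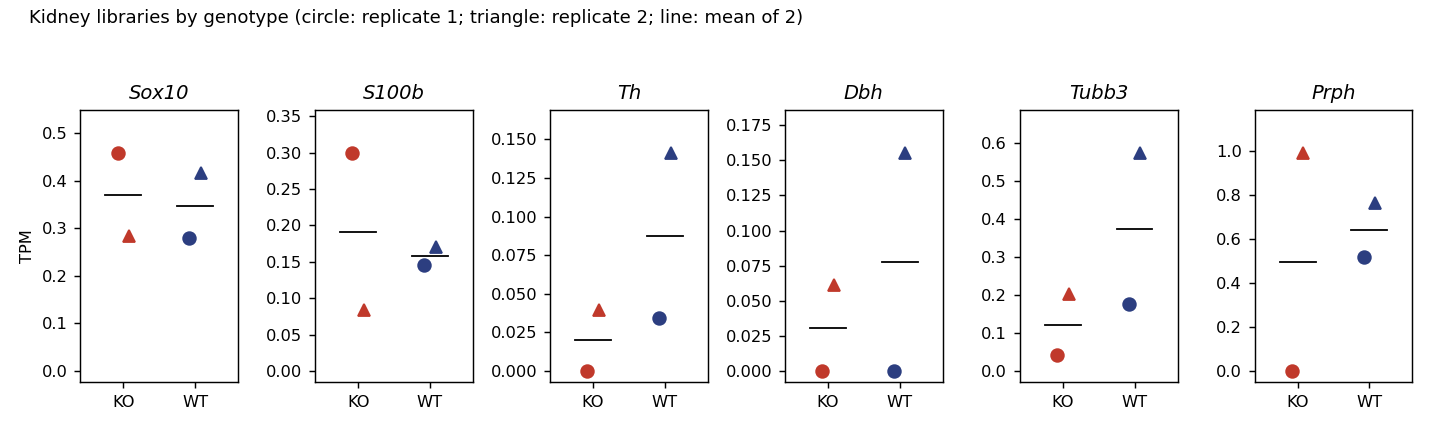
TPM of the 6 genes in the 4 kidney libraries by genotype (red, Ahnak KO; blue, WT; circle, replicate 1; triangle, replicate 2; line, mean of 2), each panel with its own axis from 0. The genotypes overlap in every panel, and Ahnak KO replicate 1 is the highest library for Sox10 and S100b and the lowest for the other 4 genes, sharing 0 with WT replicate 1 for Dbh.

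Ahnak KO kidney 1 stood apart from the other kidneys. It had 176348 counts of Xist and 0 on 4 Y chromosome genes, against 21 to 26 counts of Xist and 15982 to 18055 on the Y genes in the other 3 kidneys. It listed 7755 genes at 0, against 6415 to 6706, and of 527 genes with 20 to 60 counts in each of the other 3 kidneys it listed 40 (7.59%) at 0, a share of at most 0.752% for any other kidney library. Th, Dbh and Prph were at 0 in it and Tubb3 was lowest in it, while Sox10 and S100b were highest. Without it the kidney log2 fold changes were -0.23 for Sox10, -0.81 for Tubb3 and 0.75 for Prph, all with an adjusted p of 1 in edgeR, and the genes called rose from 2 to 46. Without WT kidney 1 Sox10 was at -0.15, without WT kidney 2 Prph was at 0.021 and Tubb3 at -0.47, without Ahnak KO kidney 2 Prph was 0 in the KO group, and edgeR called 10, 3 and 87 genes. Over the 10 gene lists, 110 of 132 genes were tested between kidney genotypes, and edgeR called 0, with 2 (S100a8 and Ednrb) at an unadjusted p under 0.05 and 0 by DESeq2, where 1.38% of all genes tested had such a p and DESeq2 called 0.267%. The widest kidney differences in the lineage lists, none of them called, were Foxd3 (log2 fold change -0.55) and Egr2 (0.99) among Schwann genes, Chga (-0.84) and Pnmt (0.42) among noradrenergic genes, and Nefl (-1.19) and Elavl3 (1.52) among pan-neuronal genes. In the signalling and subtype lists they were Ntf3 (-0.29) and Nrg1 (0.63), Ntrk2 (-0.28) on the lower side of the receptors, Chrna7 (-0.26) and Ache (0.11), and P2rx3 (-1.11) and Calca (1.06). In the gene families they were Tubb1 (-0.15) and Tubb2b (0.047), Sync (-0.16) and Des (0.14), and S100a13 (-0.040) and S100a8 (0.96). Ahnak itself had 8414 and 7744 counts in the Ahnak KO kidneys, 13058 and 11545 in the WT kidneys, 18895 in the Ahnak KO ureter and 37439 in the WT ureter. KO over WT in kidney came to -0.47 on the log2 scale (standard error 0.0961, edgeR's adjusted p = 1). Between the ureters, which differ in depth, Ahnak was at 0.874 times the WT level after TMM scaling (95% exact counting interval 0.859 to 0.89) and higher in the Ahnak KO library by TPM (88 against 77.5), so its level hardly separated the ureter labels. The table sums Ahnak over its transcripts, so the disruption of exon 5 was not read from it.

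In ureter, 1 library stood for each genotype, so the ratios compare a pair of libraries and have no replicate error. After TMM scaling Sox10 in the library labelled Ahnak KO was 0.923 times its WT level (95% exact counting interval 0.780 to 1.09) and S100b was 1.09 times (0.952 to 1.25). Prph was 1.02 times (0.795 to 1.31), Tubb3 1.43 times (0.906 to 2.25) and Dbh 0.666 times (0.287 to 1.43). These 5 intervals hold 1, and they cover counting error only. Th, at 29 counts against 12, was 4.19 times its WT level (2.07 to 9.01). On the scale of log2(CPM + 0.5) used to call a 2-fold difference, Th reached 0.94, so 0 of the 6 genes passed it in either direction, where 4.50% of 16117 genes passed it upward and 5.75% downward. Th reached 1.65 with a pseudocount of 0.1 CPM and passed. The signs of S100b (0.12) and Prph (0.029) turned to -0.071 and -0.14 when library size alone was used, which moved the median of all genes from -0.016 to -0.20. Rn45s, the ribosomal precursor RNA, made up 8.06% of what was counted for the Ahnak KO ureter and 0.496% to 0.632% for the other 5 libraries.

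**Figure D5:**
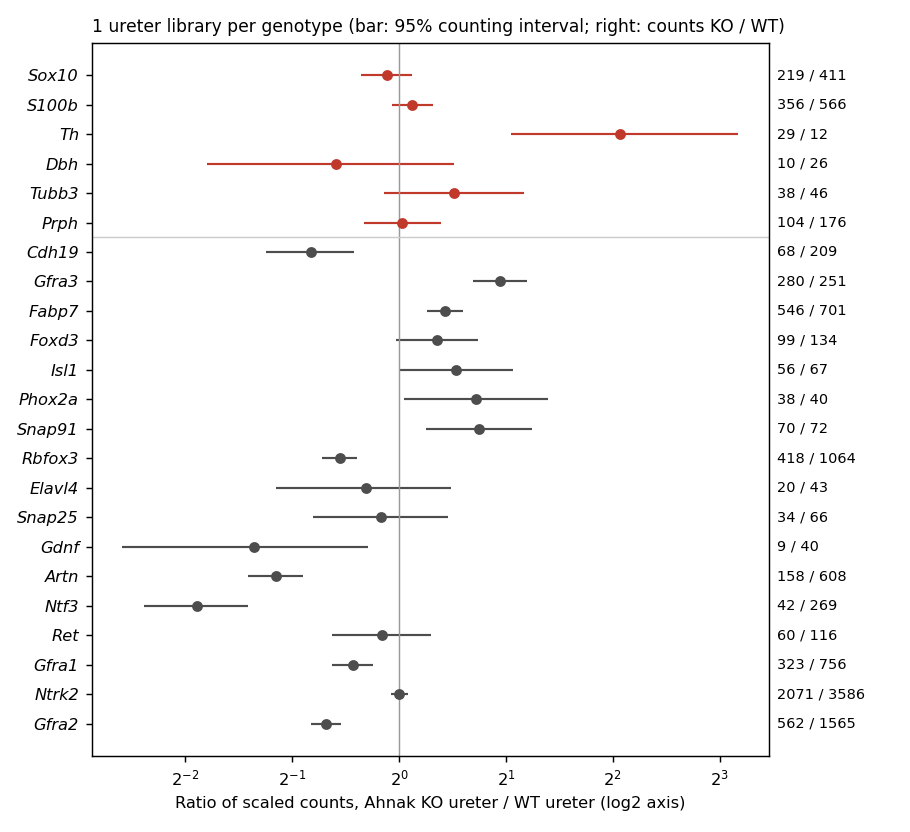
Ratio of TMM-scaled counts in the Ahnak KO ureter library over the WT ureter library on a log2 axis (bar, 95% exact counting interval) for the 6 genes (red) and for genes named from 5 lists for their tissue difference (grey), with both counts at the right. Among the 6 genes only the interval of Th lies clear of 1, and Ntf3 and Artn lie to the left with lower counts in the Ahnak KO library.

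Related genes moved unevenly between the ureter libraries. The growth factors Artn and Ntf3 had fewer scaled counts in the Ahnak KO library, at 0.450 times (95% exact counting interval 0.375 to 0.537) and 0.270 times (0.191 to 0.375) their WT levels. Of 12 ligands compared, 4 were over 2-fold lower and 0 over 2-fold higher, with a median log2 ratio of -0.68. Over all 16117 genes compared, 5.75% were over 2-fold lower and 4.50% over 2-fold higher. Phox2a was at 1.65 times its WT level (1.03 to 2.63) and Isl1 at 1.45 times (0.997 to 2.1). Cdh19 was at 0.564 times (0.422 to 0.744) and Gfra3 at 1.93 times (1.62 to 2.30). In the Schwann list 1 of 25 genes was over 2-fold higher and 3 were over 2-fold lower, with a median log2 ratio of -0.037. In the pan-neuronal list 2 and 3 of 20 were, with a median of -0.031. Gap43 and Ngfr, a growth cone protein and the low-affinity neurotrophin receptor, were named after their values were seen and stood at 0.444 times (0.379 to 0.519) and 0.503 times (0.459 to 0.551). Other genes of these lists, also named after their values were seen, went the other way. Nefm and Stmn2 stood at 2.68 times (2.25 to 3.21) and 1.53 times (1.36 to 1.71), and Pmp22 at 1.58 times (1.53 to 1.63). Striated muscle markers moved in the direction of Gap43 and Ngfr, with 4 of 6 over 2-fold lower and a median log2 ratio of -1.62. The part of muscle in these ratios was not tested.

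Whether the genotype difference itself changed between tissues was tested as an interaction in edgeR. For the 6 genes 0 were called, 0 had an unadjusted p under 0.05 and 0 were called by DESeq2, where edgeR called 19 of 16873 genes (0.113%). Th had the widest estimate, a log2 difference of 3.6 (standard error 2.31, adjusted p = 0.586), followed by Tubb3 at 2.06 (standard error 1.80, adjusted p = 0.707). Sox10, S100b, Dbh and Prph lay between -0.24 and 0.31. With 1 ureter library per genotype this test takes its spread from the kidney replicates. Of 115 list genes tested, edgeR called 0, with 27 at an unadjusted p under 0.05, and DESeq2 called 8 of the 112 to which it gave an adjusted p. Over all genes 12.8% had an unadjusted p under 0.05 in edgeR and DESeq2 called 3.04%.

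The genes most like each member over the 6 libraries, by Pearson correlation of log2(CPM + 0.5) among 14589 genes with a mean of at least 1 CPM, were read as a description. The 6 libraries fall into 2 tissues, so a gene with the same step between kidney and ureter scores high. For Sox10 they were Syngr1 (r = 0.9995), Tmc7 (0.9994) and 9530014B07Rik (0.9994), and 2685 genes had r over 0.9. For S100b they were Adtrp (0.9999), 3830417A13Rik (0.9997) and Ermp1 (0.9997). Th was most like Dpcd (0.9973), Irs1 (0.9944) and Optc (0.9933), and Dbh most like Ccdc28b (0.9911), Rab27a (0.9908) and Klhl8 (0.9893). Tubb3 was most like Klhl25 (0.9969), Foxo6 (0.9956) and Klhl42 (0.9952), and Prph most like Mgst2 (0.9941), Snx33 (0.9926) and Thtpa (0.9893). Among the members themselves Sox10 and S100b had the highest correlation, 0.998, and Th and Dbh the lowest, 0.682, all over the same 6 libraries.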

How the data were processed

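RNA of PN1 kidney (2 Ahnak KO, 2 WT) and ureter (1 Ahnak KO, 1 WT) was sequenced, and the authors deposited 1 table with an estimated count (a whole number), FPKM and TPM for each of 24532 genes in 6 libraries. The deposited FPKM and TPM had been scaled by the authors for gene length and depth, while the estimated counts were left unscaled. The paper's methods name a stranded mRNA kit, Cutadapt 2.8, STAR 2.7.1a, Cufflinks 2.2.1 and GRCm39. The submitters' processing notes name Trimmomatic 0.38, HISAT2 2.1.0, StringTie 1.3.4b and mm10 instead, so which of them made the table is open, and a count of 0 is an entry of an estimator. Gene numbers of 24462 genes matched RefSeq on GRCm38.p6. Libraries held 36410246 to 66095616 counts, and 3 counts stood for 0.0421 to 0.101 CPM after TMM scaling.

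Groups came from the tissue and genotype labels. Tests meant for read counts were applied to the estimated counts as deposited. They used edgeR 4.0.16 in R 4.3.3 (TMM factors, the filterByExpr filter and the quasi-likelihood test), with p-values adjusted by Benjamini and Hochberg's method over all genes tested. Tissue was fitted with genotype over 6 libraries (3 residual degrees of freedom), genotype over the 4 kidneys (2) and the interaction over 6 (2). Standard errors are the absolute log2 fold change over the square root of F, an approximation. Ureter genotypes were compared as log2(CPM + 0.5) where the higher library had at least 10 counts, and as a ratio of scaled counts with a 95% exact interval from the binomial distribution of the split between both libraries. The methods call the replicates biological without saying how animals were divided among the libraries, so p-values measure the spread between these libraries. Alternatives used DESeq2 1.42.0, limma 3.58.1 on log2(FPKM + 1), log2(FPKM + 0.1) and log2(TPM + 1), other filters and scalings, subsets of the libraries and a replicate block. The fits were also run on simulated counts, where known changes were set only in genes with a mean over 1 CPM. That run therefore does not cover genes as low as Th, Dbh and Tubb3. Python 3.11.15, pandas 2.3.3, scipy 1.17.1 and matplotlib 3.10.9 did the rest.

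The 6 genes and the 10 gene lists were chosen with earlier results of these data known. Named from each list were up to 4 genes with the widest called tissue difference, filled up by mean TPM, and the 3 genes most like each member. The widest kidney genotype difference in each direction was named for each list. Other genes were named after their values were seen. Some list genes are counted with their lists and not reported here by name.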

Additional observations from a re-analysis of the deposited data

Results flagged for a closer look

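In 44 genes, the 6 members and the named list genes with counts in kidney, each of the 4 kidney libraries was compared with the other 3 by Dixon's ratio of the gap to the range at its 95% limit for 4 samples, which chance passes in about 1 in 20 groups. None of the 6 members passed it. Cdh19 was at 0.115 TPM in WT kidney 2 and listed at 0 in the other kidneys (ratio 1). Pnmt was at 11.3 TPM in Ahnak KO kidney 2, against 6.81 to 7.16 TPM in the others (ratio 0.922). Scn9a was at 0.822 TPM in WT kidney 2, against 1.10 to 1.16 TPM in the others (ratio 0.834).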

How the results depend on the processing

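Sox10 and S100b stayed called higher in ureter under all 18 and all 17 alternatives that could give a value, with log2 fold changes of 1.53 to 4.23 and 2.66 to 6.75. Th, Tubb3, Prph and Dbh kept their direction under all 17, with adjusted p-values of 0.0347 to 0.567, 0.0152 to 0.418, 0.00329 to 0.267 and 0.0535 to 0.496. Tissue called 7595 genes, 5158 to 6877 with 1 library left out, and 4841 among the 4 libraries whose column headers share a number, a setting chosen after seeing the data. There Sox10 (4.11) and S100b (6.73) stayed called and Prph (2.18, adjusted p = 0.0654), Th, Tubb3 and Dbh did not pass. Not called in any of these fits, Calca turned to -0.24 in the WT libraries only and ran from -0.23 to 1.01 with 1 library left out, and P2rx3 turned to 0.70 in the WT libraries only and 0.19 with no genotype term and ran from -7.36 to 0.71 with 1 library left out. The lowest P2rx3 value rests on a ureter at 0 counts, and other causes were not tested.

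In kidney, 2 genes were called. The count was 44 with DESeq2, 1 with at least 10 counts in every library, 0 in the additive fit of all 6 libraries, 0 with limma on log2(FPKM + 1), log2(FPKM + 0.1) or log2(TPM + 1), and 3 to 87 with 1 library left out. With the title numbers as a replicate block it was 0, and with the crossed pairing, added after seeing the data, it was 1. Same-numbered kidneys did not deviate together (correlation -0.174 over 16481 genes). A correlation of 1 pair of differences cannot show whether they share a litter or a batch. The block left Sox10 at 0.11, Tubb3 at -1.68 and Prph at -1.75, all uncalled. With 1 library left out Sox10 ran from -0.23 to 0.43, turning without Ahnak KO kidney 1 or WT kidney 1, and Prph from -8.13 to 0.75, turning without Ahnak KO kidney 1 or WT kidney 2. Its lowest value rests on a group at 0 counts and the prior count of the fit. In ureter 1651 genes passed 2-fold, 2771 with a pseudocount of 0.1 CPM and 803 with FPKM + 1. By library size alone 29.3% of them were higher in the library labelled Ahnak KO, against 43.9% with TMM factors. The interaction called 19 genes and DESeq2 493. At 0 to 54 counts per kidney library, depth limits what can be said of Th, Dbh, Tubb3 and Prph there.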

Other observations

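Further list genes held values not described above. Hand2, a transcription factor of sympathetic neurons and of mesenchyme, had 36 counts in the Ahnak KO ureter and 0 in the other 5 libraries. Stmn3, a neuronal stathmin, had 40 counts in the Ahnak KO ureter, 0 in the WT ureter and 0 to 9 in kidney. Npy, a peptide of sympathetic neurons, had 202 to 238 counts in kidney, 39 in the Ahnak KO ureter and 0 in the WT ureter. Sox2, a factor of immature glia, had 4 counts in the Ahnak KO ureter, 48 in the WT ureter and 0 to 2 in kidney. Gad1, an enzyme of GABA synthesis, had 41 to 65 counts in 3 kidneys and 0 in Ahnak KO kidney 1 and both ureters. These genes were chosen after their values were seen.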
